A study of Mus musculus with 12 samples.

Results

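The transcription factors Tcf7, Lef1, Id3, Tox, Tox2, Eomes, Tbx21, Prdm1, Batf and Id2 were followed in the tumor-infiltrating lymphocytes of MC38 tumors. These 10 genes were taken by name from 26938 gene symbols with a count in single-cell RNA sequencing data. Their counts were summed by cluster and by tumor in 8 of 27 clusters, those numbered 1, 3, 7, 8, 10, 13, 23 and 24, which held 11486 of 93126 cells. All 10 genes had counts in lymphoid cells. Between 86.2% and 93.2% of the counts of Tox, Lef1, Eomes and Tbx21 came from these cells, against 73.03% for Tcf7 and 50.15% for Tox2. Only 28.2% of Batf, 14.8% of Id2, 14.7% of Prdm1 and 2.64% of Id3 counts did.

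In CD8 T cells that meet antigen for long, as in a tumor, a small group of cells keeps the capacity to self-renew, and its descendants lose it as they become exhausted. TCF-1, the product of Tcf7, and its relative LEF-1 are known to maintain naive, memory and stem-like cells, and ID3 is often found with them. TOX drives the exhaustion program. The T-box factors T-bet (Tbx21) and EOMES, the repressor BLIMP-1 (Prdm1), the AP-1 family member BATF and ID2 govern effector, terminal and exhausted states, and several of them also shape natural killer (NK) and regulatory T cells.

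MC38 is a mouse colon carcinoma line, here grown under the skin of female mice of 8 to 12 weeks. Most hosts were first-generation (F1) offspring of C57BL/6J and a Collaborative Cross (CC) strain, an inbred mosaic of several founder genomes, and the others were C57BL/6J (B6). At a tumor size of 75 to 110 mm3 each mouse received 200 µg of the isotype control antibody 2A3 or of the anti-PD-1 antibody (aPD1) 29F.1A12 once, and its tumor was taken 48 h later. The study had classed strains by tumor growth in other animals as responders (CC001/UncJ, CC002/UncJ and CC075/UncJ) or non-responders (CC036/UncJ, CC079/TauUncJ and CC080/TauUncJ), and the sample labels give the strain only. The replicate was the tumor: 10 isotype and 10 aPD1 tumors of responder strains, 9 and 9 of non-responder strains, and 5 and 5 of B6 and CC007/UncJ hosts, which have no class here.

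Cells were sorted as 90% CD45+ and 10% CD45-, and 4 hashtagged tumors, both treatments of 2 strains, were pooled in each of 12 libraries. Isotype and aPD1 tumors carried different hashtags throughout, so hashtag and treatment cannot be told apart. Classed tumors held from 24 to 743 lymphoid cells and from 49195 to 2093718 lymphoid unique molecular identifiers (UMIs, 1 per captured transcript), and the median lymphoid cell had 1874 UMIs. Levels are given in CPM, the counts of a gene scaled to a total of 1000000 UMIs in the cells summed. One CC007 aPD1 tumor had 7 lymphoid cells and entered no test. Of all cells, 10176 carried a barcode sequence found in more than 1 library, 1283 of them lymphoid, and 2 tumors carried the same animal identifier. These were a CC080 isotype tumor of pool 3 and a CC080 aPD1 tumor of pool 4, labelled with opposite treatments, so an identifier or a treatment label is in doubt.

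The clusters carry numbers only, and marker genes placed them. All 5 T cell markers reached 100 CPM in each lymphoid cluster but 24, where all 6 NK markers did and 1 T cell marker. Clusters 3 and 1 were CD8 T cells, those of cluster 1 with all 3 cycling markers, and cluster 13 was a T cell cluster with both CD8 markers. Cluster 7 held T cells with 3 of 5 naive and memory markers, cluster 8 had 4 of 5 regulatory T cell markers, and cluster 10 both CD4 markers. Cluster 7 also had both CD8 markers (634 CPM together, beside 145 CPM for the CD4 markers). There 3 of 6 NK markers reached 100 CPM too, so cluster 7 may hold several kinds of cells. Cluster 8, called regulatory T cells below by these markers, also had both CD8 markers (241 CPM together, beside 135 CPM for the CD4 markers) and all 3 cycling markers over 100 CPM, so other T cells may be among them. In clusters 1, 10 and 13, 3 of 5 regulatory T cell markers also reached 100 CPM (709, 1219 and 1280 CPM together, beside 2332 in cluster 8). Cluster 10, called CD4 T cells below, had 2 of 5 markers of type 2 innate lymphoid cells as well. It may therefore hold several kinds of cells. Cluster 23, of 212 cells, had 3 markers of gamma-delta T cells and 3 of type 2 innate lymphoid cells beside 5 T cell markers, and it was left without a name.

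Because the clusters were drawn from expression, levels by cluster are a description and were not tested. Tcf7 (chr11:52246527-52283383, GRCm38) was concentrated in cluster 7, at 153 CPM over all cells of the cluster. Per tumor it ran from 19.2 through a median of 134.7 to 275 CPM (44 tumors with at least 10 such cells). Cluster 23 followed at 133 CPM, the NK cells of cluster 24 at 93.3 CPM and the CD4 T cells of cluster 10 at 58.5 CPM. The CD8 T cells of cluster 3 had 10.6 CPM of Tcf7, with a median of 11.1 CPM over 40 tumors and 9 tumors at 0. Cluster 8, the regulatory T cells, had 7.79 CPM, and 28 of its 42 tumors were at 0.

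Cells of equal depth gave clusters 7, 23, 24 and 10 in the same order. After thinning every cell to 1000 UMIs, which left out 19.8% of lymphoid cells, 14.8% of cluster 7 cells had a Tcf7 UMI (20.4% before thinning), against 11.7% in cluster 23, 8.95% in cluster 24, 4.13% in cluster 10, 1.19% in cluster 3 and 0.321% in cluster 8. In macrophage cluster 2, a cell type that should lack Tcf7, the share after the same thinning was 0.0163%. Before thinning it was 0.132% in cluster 2 and 2.67% in cluster 3. The median depth before thinning was 3881 UMIs per cell in cluster 2, 2823 in cluster 3 and 1347 in cluster 7. The 31 of 2600 thinned cluster 3 cells with a Tcf7 UMI therefore lie above the background, with an exact 95% binomial interval from 0.812% to 1.69% for counting error only.

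Lef1 (chr3:131110297-131224357), the other factor of the TCF family, was also highest in cluster 7, at 182 CPM, with 38.8 CPM in the lowest, 162 in the median and 559 in the highest tumor. No other cluster passed 75.8 CPM, and the mean over tumors of cluster 7 (177 ± 93.1 CPM) stood above that of cluster 24 (77.9 ± 56.6 CPM) by more than either standard deviation. Cluster 3 had 29.6 CPM of Lef1, a smaller drop from cluster 7 than that of Tcf7.

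Id3, an inhibitor of E proteins that accompanies Tcf7 in memory cells, was at 24.7 CPM in cluster 7 and 13.3 CPM in cluster 13. It was at 2.56 CPM in cluster 3, where 25 of 40 tumors had no count. Its counts lay mostly outside the lymphoid clusters, with 584 CPM in cluster 22. In thinned cells the Id3 share was 2.82% in cluster 7 and 2.62% in macrophage cluster 2. That macrophage cluster is no background for Id3, whose counts lay mostly outside lymphoid cells. The other lymphoid clusters had shares from 0% to 0.861%, and whether the Id3 UMIs of cluster 7 came from its T cells was not tested.

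Tox (chr4:6686353-6991557), the exhaustion factor, had its highest level in the CD8 T cells of clusters 1 and 3. These reached 589 and 580 CPM, and cluster 3 ran from 90.8 through 504 to 1458.5 CPM over tumors. The other T cell clusters were between 296 and 371 CPM. Among them was cluster 13, which also had both CD8 markers, at 310 CPM. The NK cells of cluster 24 were at 195 CPM, with a median of 186 CPM. A Tox UMI was found in 38.04% of thinned cluster 3 cells, 19.3% of cluster 7 and 16.96% of cluster 24, against 0.103% in macrophage cluster 2. Cluster 7, where Tcf7 was highest, thus also had Tox UMIs well above that share. Outside the 8 clusters Tox was highest in cluster 12, at 188 CPM in 535 cells.

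Tox2, a relative of Tox known from follicular helper T cells, stood apart from it. Its 172 lymphoid counts were densest in the CD4 T cells of cluster 10, at 27.4 CPM, and no other lymphoid cluster passed 9.31 CPM. In cluster 10 it had counts in 11 of 21 tumors, while all 38 tumors of cluster 24 were at 0. Outside the lymphoid clusters Tox2 was at 131 CPM in cluster 25.

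The 2 T-box factors differed in how narrowly they were expressed. Eomes (chr9:118478186-118486132), which NK cells need to mature, was at 156 CPM in cluster 24, with 42.05 CPM in the lowest, 149 in the median and 315 in the highest of 38 tumors. Cluster 7 followed at 37.4 CPM and cluster 3 at 24.8 CPM, and the mean over tumors of cluster 24 (155 ± 61.7 CPM) was above that of cluster 7 (34.8 ± 29.7 CPM) by more than either standard deviation. A Tbx21 level of 121 to 175 CPM was found in the NK cells, the CD8 T cells and clusters 7, 10 and 13. T-bet is known for type 1 immunity, and its gene (chr11:97098007-97115331) was lower in the regulatory T cells of cluster 8, at 89.6 CPM, and in cluster 23, at 15.5 CPM from 5 counts.

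Prdm1, whose product represses memory genes and marks effector regulatory T cells, was highest among the lymphoid clusters in cluster 8, at 72.6 CPM. The lowest, median and highest tumor there had 14.5, 66.3 and 186 CPM. Outside the lymphoid clusters Prdm1 was higher still in cluster 15, at 88.3 CPM. The 5 clusters 1, 3, 7, 10 and 13 lay between 32.1 and 44.4 CPM, and NK cells had 14.7 CPM. Batf peaked in the CD4 T cells of cluster 10 at 199 CPM, with a median of 192 CPM over 21 tumors, followed by the regulatory T cells at 128 CPM and cluster 13 at 108 CPM. Cluster 3 had 62.5 CPM of Batf and NK cells 33.5 CPM.

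Id2, which like Id3 binds E proteins and keeps them from DNA, was the most even of the members across lymphocytes, from 351 CPM in cluster 8 to 621 CPM in cluster 24. NK cells and other innate lymphocytes require it. Most of its counts came from other cells, such as those of cluster 6 at 781 CPM.

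**Figure D1:**
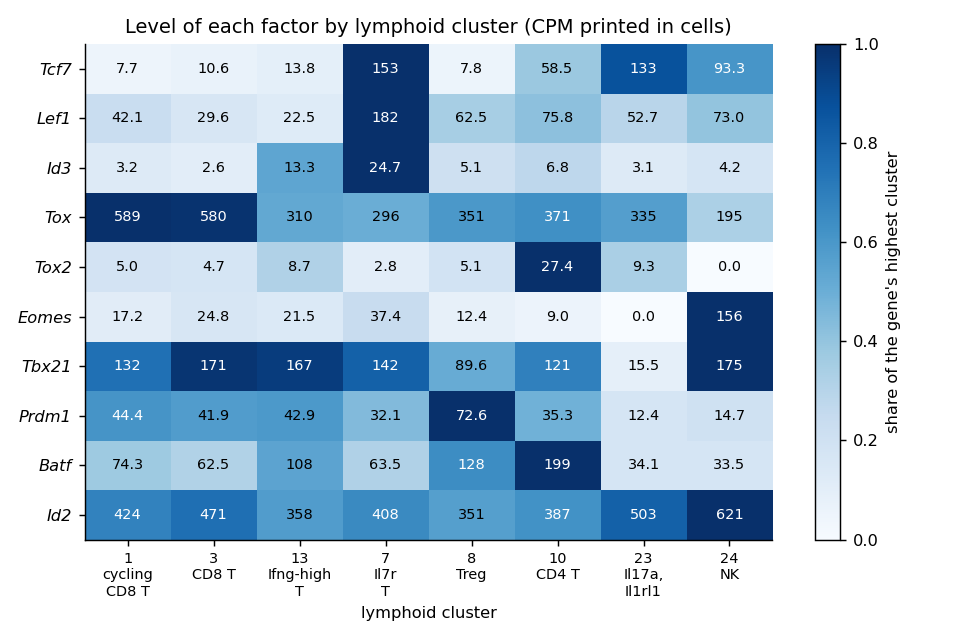
Summed level of each factor in each lymphoid cluster, printed in CPM; shading gives the level as a share of the same gene's highest cluster. Tcf7, Lef1 and Id3 peak in cluster 7, Tox in the CD8 T cells of clusters 1 and 3, Eomes in the NK cells of cluster 24, and Tox2 and Batf in the CD4 T cells of cluster 10.

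Neighbours in these orders mostly could not be separated. When clusters were ordered by the mean over tumors for each gene, 3 of 70 neighbouring pairs differed by more than the larger of their standard deviations, namely Eomes and Lef1 as given and Tbx21 between clusters 8 and 23.

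Over the 8 lymphoid clusters, Eomes and Tbx21 ran together (Pearson's r of log2(CPM + 1) 0.884), as did Prdm1 and Batf (0.759) and Tcf7 and Lef1 (0.677). Tcf7 ran against Prdm1 (-0.794) and Tox (-0.64), and Id2 ran against Batf (-0.845) and Prdm1 (-0.815). These values describe 8 clusters of the same libraries that differ in depth, and they carry no test. Across all 27 clusters Tcf7 and Tox had an r of 0.8, with 73.03% and 93.2% of their counts in the lymphoid clusters.

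The genes whose pattern over the 27 clusters was most like each member were found among 4603 genes of at least 50 CPM in a lymphoid cluster. Tcf7 was most like Apol7e (r = 0.882), Lef1 (0.868) and Rnf43 (0.857). Lef1 was most like Skap1 (0.979), Tnik (0.976) and Trbc1 (0.973), and Tox was close to Cd247 (0.989) and Trbc2 (0.989). For Eomes these were Samd3 (0.973), Gzma (0.947) and Klra5 (0.945), and for Tbx21 Klre1 (0.974), Gm19585 (0.966) and Klrc1 (0.955). The closest genes to Batf were Tg (0.911), Rassf5 (0.904) and Hcst (0.899). Tox2 (Dgki 0.837, Areg 0.815, Gata3 0.803), Id2 (Nr4a2 0.767, Traf1 0.767, Tes 0.763), Id3 (Laptm4a 0.769, Serinc1 0.69, Copb1 0.682) and Prdm1 (Itgav 0.735, Tnip1 0.657, Tbc1d2b 0.653) had no gene as close among those searched. Genes below 50 CPM in every lymphoid cluster were not searched, so a closer gene among them would have been missed.

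The first comparison was between the strain classes, in counts summed over all lymphoid cells of a tumor. In such sums, fewer cells of a type and less RNA per cell cannot be told apart. Tcf7 was the member with the largest difference. Isotype tumors of responder strains had 7.00 CPM in the lowest, 32.5 in the median and 89.5 in the highest tumor, and aPD1 tumors 14.3, 37.9 and 81.0 CPM. Non-responder tumors had 11.9, 68.4 and 146 CPM with isotype and 23.2, 50.1 and 102 CPM with aPD1. The groups overlapped, and the medians over both treatments were 35.1 CPM in responder and 64.6 CPM in non-responder strains. By strain, the mean Tcf7 level was 31.4 CPM in CC001, 35.2 in CC002 and 49.5 in CC075, below the 53.4 of CC079, 67.4 of CC036 and 68.0 of CC080. Among the members Tcf7 alone had strain means that did not overlap between the classes. How many of all genes do so was not counted, so this is a description and does not set Tcf7 apart from other genes. The unclassed hosts had 43.0 CPM (B6, 6 tumors) and 86.5 CPM (CC007, 4 tumors).

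In edgeR's quasi-likelihood test over both treatments, the Tcf7 log2 fold change of responder over non-responder strains was -0.72 ± 0.25 (SE) (adjusted p = 0.121), which did not pass. Over 18 alternatives it stayed between -0.86 and -0.58, with adjusted p from 0.0531 to 0.518. Of 6840 genes tested in this comparison, 157 were called at an adjusted p under 0.05, a share of 2.3%. Tox2 and Id3 did not pass the filter on low counts, and of the 8 members tested 0 were called by edgeR and 0 by DESeq2. Unadjusted p was under 0.05 for 4 members by edgeR and 3 by DESeq2, beside 993 of 6840 genes by edgeR. This fit has no block, and with the pool as a block 2 of the 8 were called.

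Eomes was at 6.86, 26.3 and 60.4 CPM (lowest, median and highest tumor) in responder isotype tumors and at 23.5, 53.03 and 85.2 CPM in non-responder isotype tumors. With aPD1 it was at 20.5, 28.5 and 48.5 CPM in responder strains and at 0, 26.7 and 81.2 CPM in non-responder strains. The isotype medians were apart and the aPD1 medians close, and the ranges overlapped with both treatments. The Eomes difference over both treatments was -0.60 ± 0.20 (adjusted p = 0.118). With the pool as a block, which compares tumors within a library, it was -0.72 ± 0.21 and passed (edgeR adjusted p = 0.0414).

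Tbx21 ran the other way. Responder isotype tumors had 116, 136 and 234 CPM and non-responder isotype tumors 78.4, 105 and 204 CPM. With aPD1 the medians were 126 and 124 CPM, and the ranges overlapped with both treatments. Over both treatments Tbx21 was 0.26 ± 0.12 higher on the log2 scale in responder strains (edgeR adjusted p = 0.318). It passed with the pool as a block, at 0.35 ± 0.10 (adjusted p = 0.0354), and without CC036, at 0.51 ± 0.13 (adjusted p = 0.0128), where 254 of 7294 genes were called (3.48%). In the fit with the block 279 of all genes (4.08%) and 2 members, Eomes and Tbx21, were called. Each class is 3 strains, and tumors of 1 strain entered as separate samples. With counts summed per strain and treatment neither passed (edgeR adjusted p = 0.121 for Eomes and 0.729 for Tbx21), and of 18 alternatives 1 called Eomes and 2 called Tbx21.

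Batf was -0.34 ± 0.15 (edgeR adjusted p = 0.293), and Lef1 was -0.34 ± 0.20 (adjusted p = 0.464). The remaining 3 members differed less, at -0.18 for Prdm1, 0.08 for Tox and 0.02 for Id2, with edgeR adjusted p from 0.749 to 0.977. Tox2 medians lay between 2.18 and 7.12 CPM over the 4 groups and Id3 medians between 3.47 and 11.9 CPM, with 9 and 5 of 38 classed tumors at 0.

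**Figure D2:**
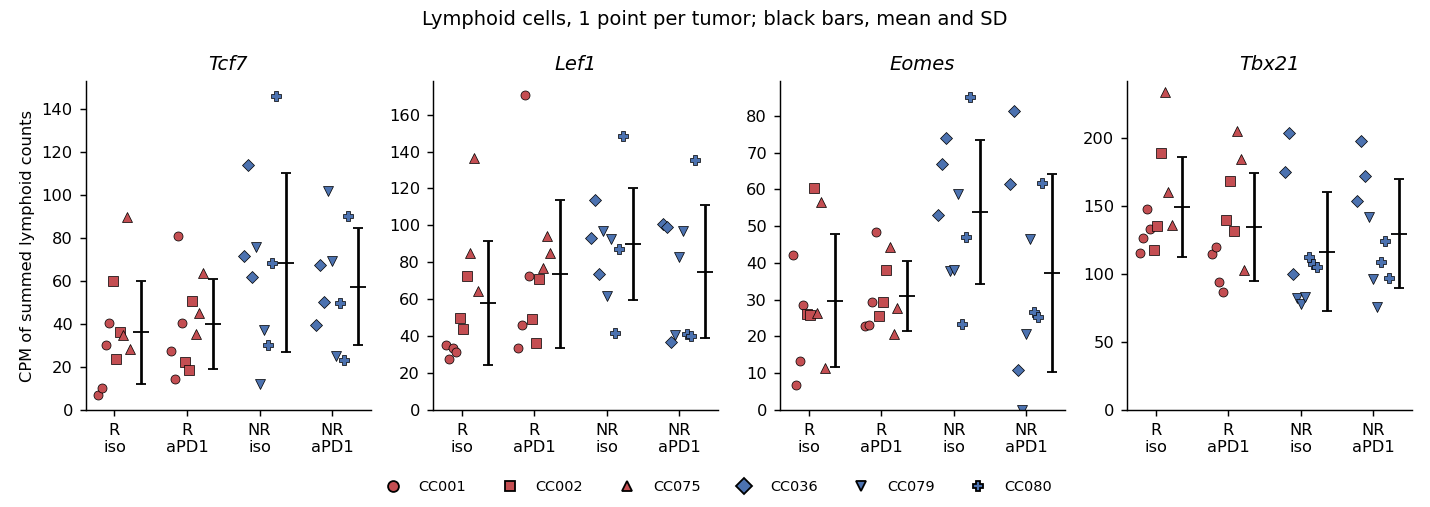
Level of Tcf7, Lef1, Eomes and Tbx21 in summed lymphoid cells, in CPM on axes from 0, with 1 point per tumor, symbols by strain, and mean with SD beside each of the 4 groups (R, responder; NR, non-responder; iso, isotype). The groups overlap for each gene, and the highest Tcf7 value is a CC080 isotype tumor at 146 CPM.

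Each treatment was also compared alone. In isotype tumors Tcf7 was at -1.01 ± 0.34 (edgeR adjusted p = 0.236), Eomes at -0.87 ± 0.28 (adjusted p = 0.220), Lef1 at -0.67 ± 0.28 (adjusted p = 0.415) and Tbx21 at 0.41 ± 0.18 (adjusted p = 0.445). All 4 had an unadjusted p under 0.05, as had 592 of 6840 genes by edgeR. None of the 8 members was called by edgeR or by DESeq2, and 25 of 6840 genes were (0.365%). With the pool as a block Eomes passed in isotype tumors too (-1.05 ± 0.28, adjusted p = 0.0476), in a fit that called 95 of 6840 genes (1.39%).

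In aPD1 tumors the same 4 genes were at -0.42 (Tcf7), -0.33 (Eomes), -0.005 (Lef1) and 0.12 (Tbx21). Of the 8 members 0 were called by edgeR or DESeq2 and 0 had an unadjusted p under 0.05. By edgeR 15 of 6840 genes were called (0.219%) and 693 had an unadjusted p under 0.05. Whether the class difference changed with treatment was tested as an interaction, and no member and no gene passed (0 of 6840, 0%). The interaction was 0.60 ± 0.49 for Tcf7, 0.54 ± 0.41 for Eomes and 0.67 ± 0.40 for Lef1, all with an edgeR adjusted p of 1.00. At an unadjusted p under 0.05 edgeR gave 228 genes and 0 members, and DESeq2 called 0 genes.

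**Figure D3:**
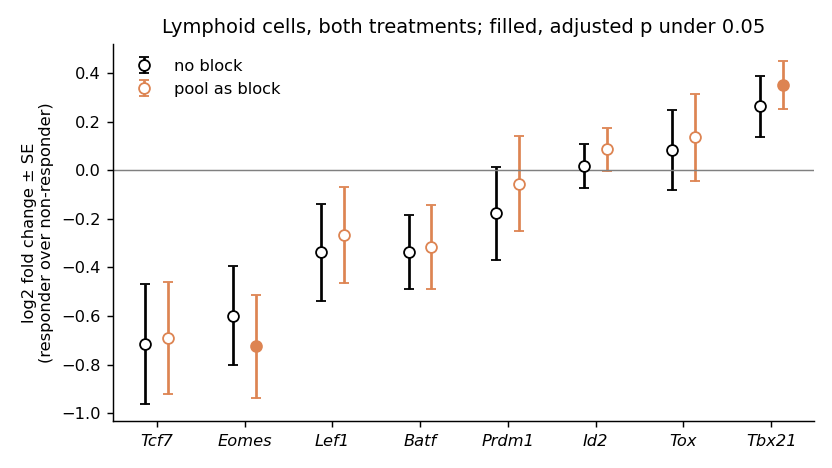
Log2 fold change of responder over non-responder strains with its SE for the 8 members tested in summed lymphoid cells over both treatments, without a block (black) and with the pool as a block (orange); filled points passed an adjusted p of 0.05. Tcf7 lies lowest at -0.72, and Eomes and Tbx21 are filled in the fit with the block alone.

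The lymphoid cells of the classes differed in their makeup, and this moved with these results. The shares are given without a test, and the part of the makeup in these results was not tested. Cluster 3, low in Tcf7, made up 34.7% of the pooled lymphoid cells of responder strains and 12.4% of those of non-responder strains. Cluster 7 made up 20.5% and 29.5%, the NK cells of cluster 24 10.2% and 17.7%, and the regulatory T cells of cluster 8 17.2% and 24.7%. Each cluster's level was then held at its value over all tumors, which include those compared, and only the makeup of each tumor was kept. The makeup here was each cluster's share of the tumor's lymphoid UMIs, not of its cells. In this way the median Tcf7 level was 36.01 CPM in responder and 59.3 CPM in non-responder strains, where 35.1 and 64.6 CPM were measured. The same calculation gave 30.9 and 40.6 CPM for Eomes, where 27.2 and 46.7 CPM were measured, and 145 and 137 CPM for Tbx21, where 134 and 108 CPM were measured.

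Within the clusters where they were highest, the class differences of Tcf7 and Eomes were smaller than their SE. In cluster 7 Tcf7 was at 133 CPM in the median responder tumor and 144 CPM in the median non-responder tumor, a difference of -0.07 ± 0.22 on the log2 scale. In cluster 24 the Eomes medians were 151 and 145 CPM, a difference of 0.10 ± 0.21. Without cluster 24, the Eomes difference of summed lymphoid cells moved to -0.18 (adjusted p = 0.804), whereas that of Tcf7 was -0.64. The summed level of 7 macrophage markers in lymphoid cells had medians of 141, 156, 148 and 147 CPM in responder isotype, responder aPD1, non-responder isotype and non-responder aPD1 tumors. B cell markers together had medians of 20.1, 15.2, 30.5 and 23.8 CPM in the same order, with overlapping ranges, and their part was not tested.

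In cluster 3, 6 members passed the filter for the class comparison, 0 were called by edgeR or DESeq2, and 31 of 4031 genes were (0.769%). Unadjusted p was under 0.05 for 2 of the members by edgeR and for 1 by DESeq2, beside 430 of 4031 genes by edgeR. Tox had a median of 486 CPM in responder and 617 CPM in non-responder tumors and was at -0.44 ± 0.18 (edgeR adjusted p = 0.347). Id2 was at 0.30 ± 0.14 (edgeR adjusted p = 0.427).

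In the regulatory T cells of cluster 8, 0 of 6 members tested were called by edgeR or DESeq2, against 5 of 3012 genes (0.166%). At an unadjusted p under 0.05 edgeR gave 321 genes, and 1 member passed by both tools. This was Prdm1, at 14.5, 56.5 and 115 CPM in the lowest, median and highest of 17 responder tumors and 20.9, 77.6 and 168 CPM in 18 non-responder tumors (-0.48 ± 0.22, edgeR adjusted p = 0.431). The ranges overlapped over most of their length. In cluster 7, 5 of 1780 genes were called (0.281%), and in cluster 24, 2 of 1515 (0.132%). None of the 5 and 4 members tested there was called or had an unadjusted p under 0.05 by edgeR or DESeq2. Clusters 1, 10, 13 and 23 had fewer than 3 tumors with 10 cells in at least 1 of the 4 groups and were not fitted.

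Related genes gave the setting of these values. These lists were chosen with earlier results of these data known, so their direction is not independent evidence. In the naive and memory list of summed lymphoid cells, Il7r, the interleukin-7 receptor chain of resting T cells, fell in responder strains (-0.58 ± 0.15, edgeR adjusted p = 0.0243) and 0 genes rose. The median of the 11 genes tested was -0.26, against 0.00356 for all genes. Of 14 exhaustion genes, 3 rose and 0 fell, with a median of 0.22. They were Pdcd1, which encodes PD-1 (0.90 ± 0.19, adjusted p = 0.00329), Rgs16 (0.97 ± 0.22, adjusted p = 0.00835) and Havcr2, which encodes TIM-3 (0.84 ± 0.21, adjusted p = 0.0156). The share of cluster 3, given above, moved with these values. Within cluster 3, 0 of the 14 exhaustion genes were called by edgeR, 2 had an unadjusted p under 0.05, and the median was 0.13 against 0.0135 for all genes. There Pdcd1 was at 0.31 ± 0.16, Rgs16 at 0.57 ± 0.22 and Havcr2 at 0.07 ± 0.18 (edgeR adjusted p = 0.486, 0.312 and 0.964). Of 7 naive and memory genes tested in cluster 3, 6 had a positive fold change and the median was 0.57, opposite in sign to that in summed lymphoid cells, with 0 called by edgeR and 3 at an unadjusted p under 0.05.

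Of 11 effector genes, 1 rose and 0 fell (median 0.43), namely Nkg7, a cytotoxic granule gene (0.63 ± 0.11, edgeR adjusted p = 0.000212). Of 13 partner genes, such as E proteins, AP-1 and IRF factors that bind DNA with the members, 1 fell and 0 rose (median -0.016). This was Tcf4, an E protein that ID2 and ID3 bind (-0.69 ± 0.18, edgeR adjusted p = 0.0272). Tcf4 was at 75.9 CPM in the NK cells of cluster 24 and at 5.62 to 21.7 CPM in the other lymphoid clusters, so the NK share, 10.2% and 17.7% as given above, moved with it, and its part was not tested. Within cluster 3, 1 of 10 effector genes rose (median 0.17), namely Gzmb, which encodes granzyme B (1.26 ± 0.29, edgeR adjusted p = 0.0255), and Nkg7 was at 0.34 ± 0.11 (adjusted p = 0.205). Of 11 partner genes there 0 were called by edgeR and 3 had an unadjusted p under 0.05 (median 0.19). Cd4, chosen after its values were seen, was lower in cluster 3 of responder strains (-3.21 ± 0.61, edgeR adjusted p = 0.00517), and the part of CD4 T cells in these values was not tested. The median of the 8 members tested in summed lymphoid cells was -0.26, with 3 positive and 5 negative.

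The next question was whether a dose of aPD1 changed the members within 48 h. In summed lymphoid cells edgeR and DESeq2 called 0 of 6840 genes (0%) and 0 members in responder strains, and 0 genes (0%) and 0 members in non-responder strains. At an unadjusted p under 0.05 edgeR gave 191 and 162 genes and 1 member in each.

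In responder strains the member was Tox, at 249.6, 454 and 778 CPM in isotype and 264, 319.7 and 550.3 CPM in aPD1 tumors (-0.49 ± 0.23, edgeR adjusted p = 1.00). Tox was lower with aPD1 in 6 of 10 pairs of one pool and strain. The strain mean went from 571 to 305 CPM in CC001 and from 565 to 376 CPM in CC075, but rose from 315 to 397 CPM in CC002. The 4 clusters fitted gave the same sign, at -0.36 ± 0.22 in cluster 3, -0.79 ± 0.31 in cluster 7, -1.01 ± 0.30 in cluster 8 and -0.23 ± 0.35 in cluster 24. These clusters are parts of the same summed tumors and are not separate evidence. The unadjusted p was under 0.05 in clusters 7 and 8, where the edgeR adjusted p was 0.999. In cluster 8 the 8 responder isotype tumors had 338, 442 and 1002 CPM and the 9 aPD1 tumors 118, 270.1 and 339 CPM, so the ranges barely met, though no call survived adjustment over 3012 genes. In the 18 non-responder tumors the cluster 8 medians were 392 and 259.9 CPM (-0.34 ± 0.30). The difference between the classes in this effect was -0.67 ± 0.42 in cluster 8 (edgeR adjusted p = 0.984) and -1.32 ± 0.45 in cluster 7 (adjusted p = 0.999).

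In non-responder strains the member was Id2, at -0.31 ± 0.13 in summed lymphoid cells (edgeR adjusted p = 1.00), lower with aPD1 in 7 of 9 pairs. The makeup of the summed cells moved with it, and its part was not tested. Cluster 8, at 351 CPM of Id2 the lowest of the 8 lymphoid clusters, went from 20.2% of the pooled lymphoid cells of non-responder isotype tumors to 34.1% of those of aPD1 tumors, with tumor ranges that overlapped. Each cluster's Id2 level was again held at its value over all tumors, with only the makeup in shares of UMIs kept. The median then went from 444 CPM with isotype to 418 CPM with aPD1, where 446 and 376 CPM were measured. Id2 lies at chr12:25093799-25096092 (GRCm38) on the minus strand. The 250 bases before its annotated start are shown because Id2 was the one member whose level was called different with treatment, in cluster 3 as given below. They were read from RefSeq promoter sequences of GRCm38.p6, and the capitals mark the 1 match to the E-box motif CANNTG, the binding site of the E proteins that ID2 inhibits.
Id2 promoter, chr12:25096093-25096342, minus strand, 5′ to 3′: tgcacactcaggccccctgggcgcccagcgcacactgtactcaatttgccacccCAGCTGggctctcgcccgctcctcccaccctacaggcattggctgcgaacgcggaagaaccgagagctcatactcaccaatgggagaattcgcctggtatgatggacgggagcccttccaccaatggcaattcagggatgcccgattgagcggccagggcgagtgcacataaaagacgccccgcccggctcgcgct
The window has 62.8% G and C. CANNTG reads the same on both strands, and 66.2% of 32851 RefSeq promoter windows hold it, as do 13 of 17 windows of the members. The form seen here, CAGCTG, is contained in CANNTG and is in 13% of all windows and in 3 of those of the members (1 each of Id2, Lef1 and Tcf7).

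In cluster 3 Id2 fell with aPD1 in non-responder strains. The 7 isotype tumors had 429, 586 and 746 CPM (lowest, median and highest). The 5 aPD1 tumors had 170.1 CPM (CC080, pool 3), 294 CPM (CC080, pool 4), 301 CPM (CC036, pool 8), 221 CPM (CC036, pool 9) and 332 CPM (CC036, pool 10). All 5 lay below every isotype tumor of these strains, and each lay below the isotype tumor of its own pool and strain, which had 644, 746, 594, 468 and 586 CPM. No CC079 aPD1 tumor had 10 cluster 3 cells, so that strain has no aPD1 value here. The log2 fold change was -1.21 ± 0.23 (edgeR adjusted p = 0.0199), and Id2 was the 1 gene called of 4031 (0.0248%).

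In responder strains Id2 was at 272, 443 and 649.7 CPM in 9 isotype tumors and at 305, 462 and 709 CPM in 10 aPD1 tumors (0.12 ± 0.15, edgeR adjusted p = 1.00). It was higher with aPD1 in 5 and lower in 4 of 9 pairs. Of 4031 genes 0 were called (0%) by edgeR or DESeq2, 146 had an unadjusted p under 0.05 by edgeR, and no member did. The effect of aPD1 differed between the classes by 1.33 ± 0.27 on the log2 scale (edgeR adjusted p = 0.0431). Id2 and Sh3bgrl were the 2 genes called for this difference (0.0496%). The unclassed hosts had Id2 medians of 442 CPM (5 isotype tumors) and 431 CPM (4 aPD1 tumors).

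The Id2 result rests on few cells. The non-responder aPD1 tumors had 10 to 33 cells of cluster 3 and 14 to 36 Id2 counts each, against 11 to 132 cells and 16 to 310 counts in isotype tumors. The aPD1 comparisons within clusters were added after the data were seen. Over 16 alternatives the fold change stayed between -1.45 and -0.96, and 7 of them called it. It passed with DESeq2 (adjusted p = 0.00204) and with the pool as a block (-1.27 ± 0.20, adjusted p = 0.00241), where Id2 was the 1 gene called (0.0248%). It missed with library size in place of TMM scaling (adjusted p = 0.0554), without CC001 (0.0667), CC036 (0.412) or CC080 (-0.96, adjusted p = 0.393), without the 2 CC080 tumors of one animal identifier and opposite treatments (0.140), with tumors of at least 20 cells (0.224) and with counts summed per strain (0.880). Within pools 1 to 6 the Id2 fold change was -1.39 (edgeR adjusted p = 0.134) and within pools 7 to 12 it was -0.99 (adjusted p = 1.00).

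Other measures of the same cells moved with it. From isotype to aPD1 in non-responder strains, the medians went from 97.5 to 150 CPM for the 7 macrophage markers together, from 250 to 384 CPM for NK markers and from 583 to 365 CPM for cycling markers, with overlapping ranges. They went from 171 to 104 CPM for naive markers, from 994 to 1310 CPM for CD8 markers and from 443 to 460 CPM for Treg markers, again with overlapping ranges. Their part in the Id2 result was not tested. The NK list is not particular to NK cells, at 6757 CPM together in macrophage cluster 2 and 5283 CPM in cluster 24. Its rise was not separated from that of the macrophage markers. Dendritic cell and stroma markers were at a median of 0 in both groups. In clusters 7, 8 and 24 the same contrast gave -0.25, -0.20 and -0.12 for Id2, each with an edgeR adjusted p of 0.999 or above.

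**Figure D4:**
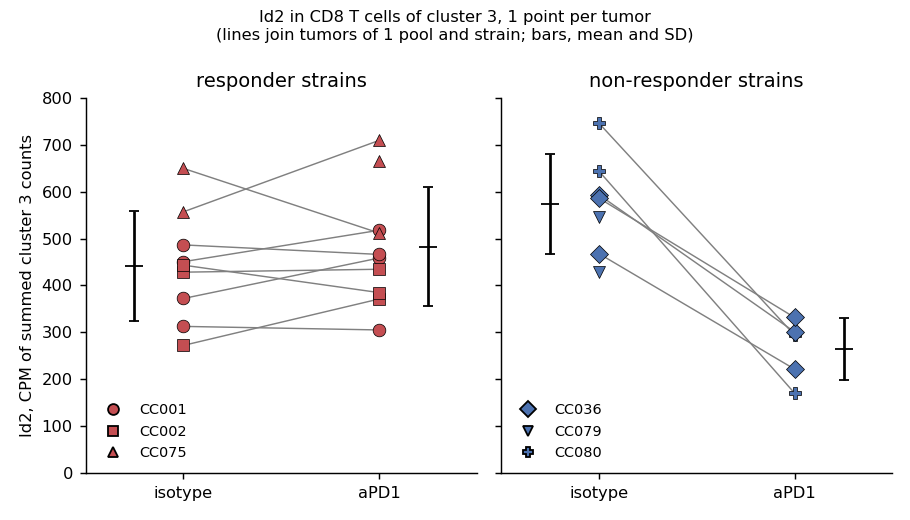
Level of Id2 in cluster 3 CD8 T cells in CPM, 1 point per tumor with at least 10 such cells, for isotype and aPD1 tumors of responder strains (left) and non-responder strains (right); lines join tumors of 1 pool and strain, and bars give mean and SD. All 5 lines of non-responder strains fall, while those of responder strains go both ways.

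In the same contrast of cluster 3, Tbx21 had medians of 127 CPM with isotype and 248.7 CPM with aPD1 (0.64 ± 0.27, edgeR adjusted p = 0.830), and Tox 573 and 889.8 CPM (0.61 ± 0.29, adjusted p = 0.898). Both had an unadjusted p under 0.05, as had 216 of 4031 genes by edgeR, and their ranges overlapped between treatments. Prdm1 was at -1.10 ± 0.62 and Lef1 at -1.92 ± 1.02, with adjusted p of 0.940 and 0.925. The interaction for Tox was -0.98 ± 0.36 (edgeR adjusted p = 0.722). All 10 effector genes tested had a negative fold change in non-responder strains, with a median of -0.56 against -0.00141 for all genes, and 0 were called by edgeR, 1 of them with an unadjusted p under 0.05.

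In clusters 7, 8 and 24 neither edgeR nor DESeq2 called any member or gene for aPD1 in either class or for the interaction (0%). At an unadjusted p under 0.05 edgeR gave 35 to 49 genes in cluster 7, 80 to 135 in cluster 8 and 12 to 51 in cluster 24. The members with an unadjusted edgeR p under 0.05 were Tox for responder strains in clusters 7 and 8, Tbx21 for non-responder strains in cluster 7 (0.55 ± 0.25), and Tox and Tbx21 for the interaction in cluster 7 (Tbx21 -0.74 ± 0.34).

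The last question was what the few Tcf7-bearing CD8 T cells of cluster 3 carry. Of 2600 thinned cells, 31 had a Tcf7 UMI and 2569 did not. No tumor had 5 cells on each side, so the values pool tumors and carry no test, and the intervals are exact binomial 95% intervals for counting error. Slamf6, a surface marker of stem-like exhausted cells, was found in 8 of the 31 cells (25.8%, interval 11.9% to 44.6%) and in 2.41% of the others. Ccr7, a chemokine receptor, was found in 16.1% and 4.09%, and Id3 in 2 of 31 cells (6.45%) and in 3 of 2569 (0.117%). With cells thinned to 1500 UMIs the Id3 difference was lost, at 0 of 32 Tcf7-bearing cells and 8 of 2251 others (0.355%), while Slamf6 was in 37.5% and 2.98%.

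Havcr2 was in 0 of the 31 cells (interval 0 to 11.2%) and in 17.5% of the others. The effector gene Gzmb was in 6.45% of the Tcf7-bearing cells and 22.8% of the others, and Ifng in 9.68% and 28.8%. Id2 was in 16.1% (interval 5.45% to 33.7%) and 34.9%. The exhaustion genes Pdcd1 (25.8% and 24.4%) and Lag3 (25.8% and 32.4%) and the members Tox (35.5% and 38.1%) and Tbx21 (9.68% and 16.1%) had shares in the other cells that lay within the intervals of the Tcf7-bearing cells. At 1500 UMIs the order also turned for Tox (59.4% and 46.2%), for Lef1 and Batf (from 0 and 3.35% to 9.38% and 4.31%, and from 3.23% and 5.92% to 9.38% and 8.31%) and for Il7r, which went from 3.23% and 6.27% to 31.2% and 9.73%. In the cycling cells of cluster 1, 6 of 440 thinned cells had a Tcf7 UMI, too few to describe.

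**Figure D5:**
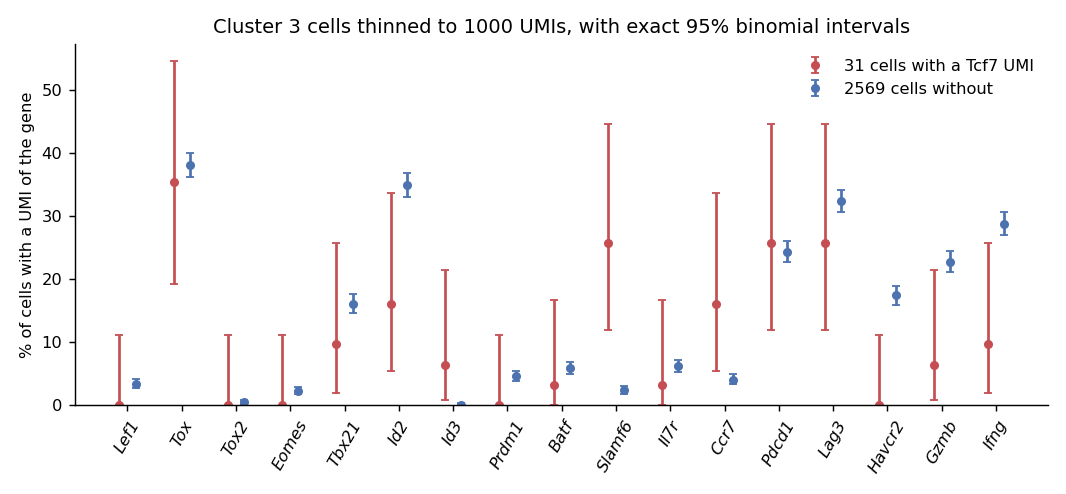
Percent of thinned cluster 3 cells with a UMI of each gene, for the 31 cells with a Tcf7 UMI (red) and the 2569 without (blue), with exact 95% binomial intervals. Slamf6 is at 25.8% and Havcr2 at 0 in the Tcf7-bearing cells, while the blue points of Tox and Pdcd1 lie within the red intervals.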

How the data were processed

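The authors sorted and hashtagged dissociated tumors, made 10x Genomics 5′ libraries, aligned reads to GRCm38 (mm10) with Cell Ranger and analysed them with Seurat 5.0.1, as the submitters' notes and the study's methods state. They removed cells of high mitochondrial or ribosomal share and assigned tumors and clusters. The deposited table holds raw UMI counts per gene and cell, and it was used unnormalized with the authors' cluster numbers. Treatment of doublets beyond the hashtags is not given in the sources used here, and no doublet caller was run. Reads of CC alleles were aligned to the C57BL/6J reference.

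Counts were summed per tumor over lymphoid cells or 1 cluster, for tumors with at least 10 such cells. One model with 4 groups (class by treatment) was fitted with edgeR 4.0.16 in R 4.3.3 (TMM, filterByExpr, glmQLFit, glmQLFTest), with Benjamini-Hochberg adjustment over all genes tested and calls at 0.05. The script was tested on simulated data. On whether tumors are independent, the sample labels say only that they were separate specimens. The animal identifier shared by 2 CC080 tumors, given above, puts this in doubt for them. Alternatives were DESeq2 1.42.0, library size scaling, no filter, the pool as a block, a batch term, each strain left out, sums per strain and treatment, at least 20 cells, and both tumors of one animal identifier left out. Chosen after seeing the data were pools 1 to 6 and 7 to 12 apart, at least 100 lymphoid cells, no cluster 24, and all aPD1 comparisons within clusters. The batch term uses the same split of pools, made at a gap in the numbers of the library names, and the labels name no batch. The members, the gene lists and the marker lists were chosen with earlier results of these data known. Named genes were all members, listed genes called in the class comparison, and the 3 genes most like each member. Some of these are not reported here.

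Tumors of 1 pool share a library. Deviations from group means correlated at a mean r of 0.166 within pools (55 pairs of tumors) and -0.0411 between pools (648 pairs), so the pool was taken as pairing the tumors. Strain means were not removed, and each pool holds both treatments of its strains. This correlation therefore cannot tell pool from strain. The model named above has no block, as the design was fixed, and the value with the pool as a block is printed wherever it changes a call.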

Additional observations from a re-analysis of the deposited data

Results flagged for a closer look

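Of 40 groups of tumors, 4 for each member, 4 had a highest tumor far from the others by Dixon's test, which chance alone would give in about 1 of 20. Both Id3 and Lef1 were highest in the CC001 aPD1 tumor of pool 4 (304 lymphoid cells), at 36.8 CPM for Id3 (next responder aPD1 tumor 8.27) and 171 CPM for Lef1 (next 94.5). In responder isotype tumors Id3 was highest in the CC002 tumor of pool 3, at 10.5 CPM in 219 cells (next 4.49), and Lef1 in the CC075 tumor of pool 10, at 137 CPM in 84 cells (next 85.0). The effect of aPD1 on Id2 in cluster 3 differed between the classes by 1.33 on the log2 scale in the test of that difference, from -1.21 in non-responder to 0.12 in responder strains.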

How the results depend on the processing

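With the pool as a block, 2 members were called for class over both treatments (Eomes and Tbx21) and 1 in isotype tumors (Eomes, beside 1.39% of all genes), where 0 were without it. The block changed no other call of a member. Leaving out each strain in turn gave 0 to 1 members called for class over both treatments, the 1 being Tbx21 without CC036. For Id2 in cluster 3, the count of members called for aPD1 in non-responder strains and for the interaction was 0 with library size alone, with sums per strain and treatment, without both tumors of one animal identifier, with at least 20 cells, and within pools 1 to 6 or 7 to 12. It was 0 to 1 when strains were left out in turn, and for the interaction it was 1 without CC079 only.

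For class over both treatments, Tox (0.08) ranged from -0.103 without CC079 to 0.27 without CC036 when strains were left out in turn, and was -0.0287 without cluster 24. Id2 (0.02) ranged from -0.0441 without CC075 to 0.0641 without CC001, and was -0.0447 with library size alone and -0.0738 with at least 100 lymphoid cells. Prdm1 turned from -0.18 to 0.0785 within pools 7 to 12. None of these was called in either fit, and the cause was not tested. Over all comparisons 168 of 2176 alternative values of members had another sign, 0 of them called. The count of genes called for class over both treatments went from 157 to 279 with the block, 290 with a batch term and 307 with no filter. Library size alone moved the median of all genes to -0.0517.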
